A study of Mus musculus with 6 samples.

Results

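The genes described here are 9 genes of plasminogen activation and of the tissue factor pathway: *Plau*, *Plat*, *Plaur*, *Serpine2*, *Serpinb2*, *F3*, *Tfpi*, *Tfpi2* and *Thbd*. They were chosen by name from the 43043 genes that the tables list, and all 9 were found. RNA-seq was performed on D4M-3A cells, a mouse melanoma line kept in culture. The 3 Ctrl samples were transduced with the empty CRISPR-Cas9 construct, and the 3 Nfkbiz KO samples with a construct targeting *Nfkbiz*, the gene of IκBζ. Both groups had lentiviral transduction and puromycin selection in common, and whether the resulting lines were clonal was not given in the sources used here. The samples were described as independent experiments, so the p-values cover the spread between cultures of these 2 lines and not between separately made lines.

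Plasmin, the protease that dissolves fibrin and cleaves matrix proteins, is made from plasminogen by urokinase (encoded by *Plau*) or tissue plasminogen activator (*Plat*). Urokinase is held at the cell surface by the urokinase receptor (*Plaur*), and both activators are inhibited by serpins such as protease nexin-1 (*Serpine2*) and PAI-2 (*Serpinb2*). Tissue factor (*F3*) is the membrane receptor of factor VIIa that starts the clotting cascade. It is inhibited by tissue factor pathway inhibitor (*Tfpi*), whereas the related Kunitz inhibitor *Tfpi2* mainly acts on plasmin and other serine proteases, and thrombomodulin (*Thbd*) turns thrombin from a clotting protease into an activator of protein C. Tumor cells, including melanoma cells, are known to make urokinase, its receptor and tissue factor. IκBζ, an atypical member of the IκB family, works in the nucleus together with NF-κB, and the comparison asks which of these 9 genes differ in RNA level in cells with the *Nfkbiz* construct.

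The libraries held 32219900 to 44927203 reads counted on genes, of which 96.5% to 96.9% were uniquely mapped. *Nfkbiz* RNA, the targeted gene, was measured at 69.1, 75.2 and 63.4 TPM (a level scaled by transcript length and library depth) in Ctrl and at 34.8, 34.7 and 35.1 TPM in Nfkbiz KO, so RNA of the gene was still counted in every Nfkbiz KO library. The study checked the knockout by immunoblot of IκBζ protein, which RNA levels do not measure. The Ctrl samples differed more from each other than the Nfkbiz KO samples did, with chi-square values of 26.0 to 66.6 per degree of freedom between Ctrl pairs and 3.43 to 5.93 between Nfkbiz KO pairs. Of the melanocyte lineage markers, *Tyr* and *Sox10* had 0 reads in all 6 samples, and the summed level of the 8 markers was 1.31 to 1.80 TPM in Ctrl and 1.27 to 1.98 TPM in Nfkbiz KO. Of the 4 markers of dedifferentiated melanoma cells, which other mesenchymal cells also express, *Vim* had mean levels of 2570 (Ctrl) and 3700 (Nfkbiz KO) TPM (log2 fold change 0.42, edgeR adjusted p = 0.00044), *Nes* 248 and 227 TPM (-0.22, adjusted p = 0.0086) and *Axl* 768 and 901 TPM (0.14, adjusted p = 0.089). The fourth, *Ngfr*, had 1 read in Ctrl and 7 in Nfkbiz KO. The pigment cell markers were thus near 0 in these melanoma cells in both groups.

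The promoters of 3 of the genes that differed are shown to place them in the genome and to display the motif matches they hold. The windows cover 250 bases before to 50 bases after the transcription start in the RefSeq promoter table (build GRCm38.p6), which has entries for 6 of the 9 genes, and *Plau*, *Plat* and *Thbd* are named only. Each window was placed in GRCm39 by an exact match of its whole sequence. Capitals mark matches on either strand to the letters TGANTCA (AP-1), TTNNGNAA (C/EBP), TTCNNNGAA (STAT), CACGTG (E-box) or the NF-κB consensus, and no matches overlapped. The windows lie at chr3:121516936-121517235 on the plus strand (*F3*), chr7:24161658-24161957 on the plus strand (*Plaur*) and chr1:79836333-79836632 on the minus strand (*Serpine2*), and are written from 5′ to 3′. The first of the 2 windows of *Serpinb2*, at chr1:107438903-107439202 on the plus strand, is added because that gene did not pass the test.
F3: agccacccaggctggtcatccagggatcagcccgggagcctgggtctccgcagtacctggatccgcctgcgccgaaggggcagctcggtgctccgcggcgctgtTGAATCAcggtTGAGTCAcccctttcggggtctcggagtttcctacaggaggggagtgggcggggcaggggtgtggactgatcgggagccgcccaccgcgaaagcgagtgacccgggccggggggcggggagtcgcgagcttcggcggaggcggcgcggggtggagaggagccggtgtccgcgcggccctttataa
Plaur: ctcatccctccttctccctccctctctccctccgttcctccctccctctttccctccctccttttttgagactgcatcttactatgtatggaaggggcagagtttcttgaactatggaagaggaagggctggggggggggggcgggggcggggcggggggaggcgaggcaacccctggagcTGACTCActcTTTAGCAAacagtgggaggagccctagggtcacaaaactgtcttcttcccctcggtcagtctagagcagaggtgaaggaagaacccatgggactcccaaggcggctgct
Serpine2: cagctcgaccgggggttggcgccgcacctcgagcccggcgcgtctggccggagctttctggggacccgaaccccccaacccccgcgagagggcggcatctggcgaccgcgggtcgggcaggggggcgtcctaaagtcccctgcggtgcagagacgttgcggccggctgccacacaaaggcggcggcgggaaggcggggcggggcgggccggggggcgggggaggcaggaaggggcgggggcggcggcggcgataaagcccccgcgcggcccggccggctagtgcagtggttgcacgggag
Serpinb2: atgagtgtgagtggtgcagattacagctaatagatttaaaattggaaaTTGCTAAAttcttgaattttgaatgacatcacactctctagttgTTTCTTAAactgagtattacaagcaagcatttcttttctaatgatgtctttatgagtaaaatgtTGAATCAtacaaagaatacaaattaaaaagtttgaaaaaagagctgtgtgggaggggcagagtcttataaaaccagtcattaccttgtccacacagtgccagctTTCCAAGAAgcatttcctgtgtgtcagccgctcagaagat

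The *F3* window holds an AP-1 pair, TGAATCA at 146 and TGAGTCA at 135 bases before the start. The *Plaur* window has the AP-1 letters TGACTCA at 69 bases before the start, followed by the C/EBP letters TTTAGCAA at 59 bases before it. None of the 5 motifs was found in the *Serpine2* window, which has a GC content of 77.7% against 70.3% for *F3*, 59.3% for *Plaur* and 35.3% for *Serpinb2*. *Serpinb2* in turn has AP-1, C/EBP and STAT matches in each of its 2 windows. These windows overlap, and their AP-1 letters, STAT letters and C/EBP letters TTTCTTAA are the same sites seen from 2 starts. The STAT letters lie 10 bases after the start in the window shown and 77 bases before it in the other. Of the genes whose windows are not shown, *Tfpi* has an E-box match and *Tfpi2* has AP-1 and C/EBP matches. Across all 32851 promoters of the table, AP-1 letters occur in 7.81%, STAT letters in 8.3%, E-box letters in 7.15%, C/EBP letters in 40.7% and the NF-κB consensus in 8.46%. No window of the 6 genes holds the NF-κB consensus, which says only that these exact letters are not in the windows searched. Sites that depart from the consensus were not searched for, so NF-κB sites in these windows, that of *F3* included, may have been missed. The matches thus occur both in genes that differed and in genes that did not pass the test.

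Of the 9 genes, 8 had enough reads to be tested, and 6 of these 8 passed edgeR's quasi-likelihood test at 0.05 after Benjamini-Hochberg correction across the 14419 genes tested, where 36.6% of all genes passed. *Plau*, *Plaur*, *Plat* and *Thbd* were higher in Nfkbiz KO (4 of 8, against 18.2% of all genes), and *Serpine2* and *F3* were lower (2 of 8, against 18.4%). *Serpinb2* and *Tfpi* did not pass, and *Tfpi2* had too few reads to be tested. Among the 8 tested genes, the groups did not overlap in CPM (reads scaled by library depth) for the same 6, which held for 48.4% of all genes tested. The median log2 fold change of the 8 genes was 0.10 against -0.02 for all genes, and the median size of the change regardless of direction was 0.40 against 0.19. None of the 9 genes passed the study's thresholds of more than 2-fold change with a difference above 4 (taken here as TPM because its unit is not given) and an adjusted p of 0.05, which 1.79% of all genes passed. This count was 0 by edgeR, DESeq2 and limma alike, and also 0 with the unadjusted p in place of the adjusted p.

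**Figure D1:**
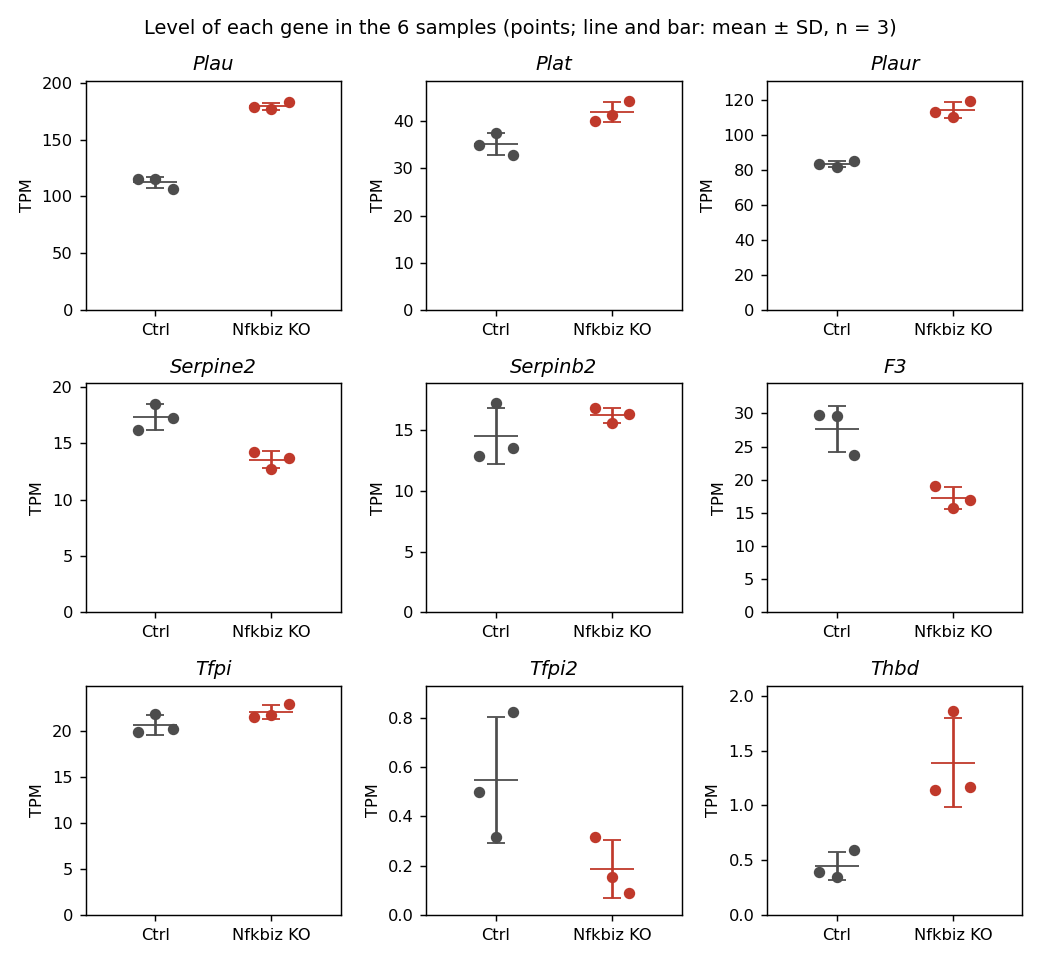
Level of each of the 9 genes in TPM (y axis, from 0) in the 3 Ctrl (grey) and 3 Nfkbiz KO (red) samples; each point is a sample, and lines and bars give the mean ± SD. *Plau* lies between 107 and 115 TPM in Ctrl and between 177 and 183 TPM in Nfkbiz KO, whereas the samples of *Tfpi* and *Serpinb2* overlap between the groups.

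The plasminogen activator *Plau* had the highest level of the 9 genes in both groups. It was measured at 115, 115 and 107 TPM in Ctrl and at 179, 177 and 183 TPM in Nfkbiz KO, with means of 112 ± 4.84 and 180 ± 2.93 TPM (SD, n = 3). Every Nfkbiz KO sample lay above every Ctrl sample, and the difference of 67.4 TPM between the means was far larger than the SD within either group. On read counts, *Plau* was 1.5-fold higher (95% interval 1.39 to 1.62), a log2 fold change of 0.58 (SE 0.051, edgeR adjusted p = 2.2e-06). This change was larger in size than that of 85.0% of all genes tested. The ratio of mean TPM was 1.6. TPM values rest on exon reads only and ran slightly higher in Nfkbiz KO over all genes, with a median shift of 0.06 to 0.08 on the log2 scale. The gene spans chr14:20886722-20893453 on the plus strand (GRCm39) and shares 388 bases, 15.11% of its exon sequence, with the antisense transcript Gm63115. Reads were counted on both strands, so reads of antisense partners cannot be told apart from those of the gene here or below.

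*Plat*, the second activator, was expressed at a lower level and differed less. It had 35.0, 37.4 and 32.8 TPM in Ctrl and 40.1, 41.3 and 44.3 TPM in Nfkbiz KO, without overlap. Its log2 fold change was 0.16 (SE 0.058, 95% interval 0.04 to 0.29, edgeR adjusted p = 0.044), which corresponds to 1.12-fold. The call was close to the threshold: it was lost in 5 of the 6 fits that left out 1 sample, where the log2 fold change was 0.12 to 0.20, all but the fit without Ctrl 2, and with the replicate number as a block (adjusted p = 0.069). The adjusted p was 0.085 without Ctrl 1, 0.055 without Ctrl 3, 0.054 without Nfkbiz KO 1, 0.10 without Nfkbiz KO 2 and 0.23 without Nfkbiz KO 3. *Plat* lies at chr8:23247709-23272871 on the plus strand.

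*Plaur*, which encodes the receptor that anchors urokinase, was measured at 83.1, 81.3 and 85.0 TPM in Ctrl and at 113, 110 and 119 TPM in Nfkbiz KO. The receptor and its ligand *Plau* were therefore both higher in each Nfkbiz KO sample than in any Ctrl sample. The log2 fold change of *Plaur* was 0.33 (SE 0.061, 95% interval 0.20 to 0.47, edgeR adjusted p = 0.001), or 1.26-fold. It stayed between 0.30 and 0.38 when single samples were left out, and the call was kept in 14 of 14 alternative settings. The gene lies at chr7:24161875-24175394 on the plus strand, and its promoter is the one with adjacent AP-1 and C/EBP letters.

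The inhibitor *Serpine2* fell. Protease nexin-1, its product, inhibits urokinase, tissue plasminogen activator, plasmin and thrombin. Its level was 16.2, 18.5 and 17.2 TPM in Ctrl and 14.2, 12.7 and 13.7 TPM in Nfkbiz KO, so that the groups were separate but the nearest samples were only 16.2 and 14.2 TPM. The log2 fold change was -0.47 (SE 0.064, 95% interval -0.61 to -0.33, edgeR adjusted p = 0.00012), that is 1.38-fold lower. *Serpine2* lies at chr1:79763323-79839144 on the minus strand.

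PAI-2, encoded by *Serpinb2* and made by many cells under inflammatory stimuli, did not pass the test. *Serpinb2* had 12.9, 17.2 and 13.5 TPM in Ctrl and 16.8, 15.6 and 16.3 TPM in Nfkbiz KO. All Nfkbiz KO samples fell inside the range of the Ctrl samples, with Ctrl 2 the highest of the 6. The log2 fold change was 0.05 (SE 0.095, edgeR adjusted p = 0.75), and its 95% interval of -0.16 to 0.25 leaves room for a change of modest size in either direction. The exact permutation test over samples gave p = 0.6 (two-sided), where 0.1 is the smallest value that 3 against 3 samples can give. Each of the 6 genes that passed edgeR's test had p = 0.1 by this permutation test, so none of them fell below 0.05 by it. *Serpinb2* lies at chr1:107428593-107463208 on the plus strand, in a cluster of serpin genes, and shares 275 exon bases with *Serpinb10*, which had 0 reads in all samples. Its exons also share 303 bases (10.67%) with the antisense transcript Gm70772, not analysed here.

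Tissue factor RNA was lower in Nfkbiz KO cells. *F3* was measured at 29.8, 29.6 and 23.7 TPM in Ctrl and at 19.0, 15.7 and 17.0 TPM in Nfkbiz KO, with means of 27.7 ± 3.48 and 17.2 ± 1.69 TPM (SD, n = 3). Ctrl 3 was the lowest Ctrl sample but still lay above all Nfkbiz KO samples. The log2 fold change was -0.80 (SE 0.091, 95% interval -1.0 to -0.60, edgeR adjusted p = 2.2e-05), a 1.74-fold lower count, and of the 8 genes tested only *Thbd* had a larger change. Leaving out single samples gave -0.87 to -0.73. *F3* lies at chr3:121516610-121528820 on the plus strand. Its exons share 642 bases (20.72%) with the antisense gene Gm64338, not analysed here, and 439 bases (14.17%) with the antisense gene Gm43823, which was itself counted with 12, 12 and 8 reads in Ctrl and 5, 1 and 3 reads in Nfkbiz KO.

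The inhibitor *Tfpi* did not pass the test. Its levels were 19.9, 21.9 and 20.2 TPM in Ctrl and 21.5, 21.8 and 22.9 TPM in Nfkbiz KO, which overlap. The log2 fold change of 0.01 (SE 0.056, edgeR adjusted p = 0.88) had a 95% interval of -0.11 to 0.13, narrower than that of *Serpinb2*. *Tfpi* lies at chr2:84263195-84307164 on the minus strand.

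*Tfpi2* was detected at a few reads per library, with 9, 6 and 19 reads in Ctrl and 5, 3 and 2 reads in Nfkbiz KO. Summed over the groups, these were 34 reads (exact 95% Poisson interval 23.5 to 47.5) and 10 reads (4.80 to 18.4), or 0.296 and 0.0851 CPM. These intervals cover counting error only. Ctrl 3 contributed more reads than the other Ctrl samples together, and the level of Ctrl 2 equalled that of Nfkbiz KO 1, both at 0.318 TPM, while in CPM they were 0.157 and 0.154. Without a filter on low counts, edgeR gave a log2 fold change of -1.69 (SE 0.74, adjusted p = 0.082). The gene also entered the fits without Ctrl 2 and without Nfkbiz KO 1, with -2.01 (adjusted p = 0.028) and -2.25 (adjusted p = 0.046). It reached the filter there only through Ctrl 1 and Ctrl 3, the samples with its highest CPM (0.261 and 0.449). The left-out samples, Ctrl 2 and Nfkbiz KO 1, were those in which the groups came closest. No conclusion is drawn from these 2 adjusted p-values. *Tfpi2* lies at chr6:3962589-3988964 on the minus strand.

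*Thbd* showed the largest fold change of the 8 genes tested, from a low level. It was counted with 15, 14 and 29 reads in Ctrl and 38, 77 and 55 reads in Nfkbiz KO, which gave 0.392, 0.348 and 0.589 TPM against 1.14, 1.86 and 1.17 TPM. The lowest Nfkbiz KO sample thus lay above the highest Ctrl sample. The log2 fold change was 1.52 (SE 0.32, edgeR adjusted p = 0.0029), or 2.87-fold with a 95% interval of 1.76 to 4.68. It ranged from 1.25 to 1.84 with single samples left out, and was 0.72 by limma on log2(TPM + 1), where the added 1 dampens the change of a gene near 1 TPM. The difference in level was 0.946 TPM, below the study's cut-off of 4. *Thbd* lies at chr2:148216045-148250201 on the minus strand.

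Thrombomodulin is made in quantity by endothelial cells, so the 6 endothelial markers were read beside it. Their summed level was 0.550 to 0.827 TPM in Ctrl and 1.32 to 1.85 TPM in Nfkbiz KO, and *Cdh5* (VE-cadherin) carried most of it, with means of 0.548 and 1.54 TPM and a log2 fold change of 1.34 (edgeR adjusted p = 0.0023). *Pecam1* had 0.0984 and 0.0724 TPM, *Cldn5* had 0 reads in all samples, and *Emcn* was listed at 0 TPM. Of the 6 markers, 4 were not tested for low counts, and 1 of the 2 tested passed (against 36.6% of all genes). The part of other cells in the *Thbd* result was not tested, and in bulk RNA more expressing cells and more RNA per cell cannot be told apart for any gene described here. Monocytes and macrophages also make *Plaur*, *Serpinb2* and *F3*. The 6 leukocyte and macrophage markers summed to 16.0 to 17.6 TPM in Ctrl and 17.4 to 20.3 TPM in Nfkbiz KO, mostly from *Cd14* (14.6 and 15.4 TPM). Of these markers, 0 of the 2 tested passed by edgeR (against 36.6% of all genes), DESeq2 or limma, with 0 at an unadjusted p under 0.05. The defining genes of these cells, *Ptprc* and *Adgre1*, had means of 0.0132 TPM or less in both groups.

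**Figure D2:**
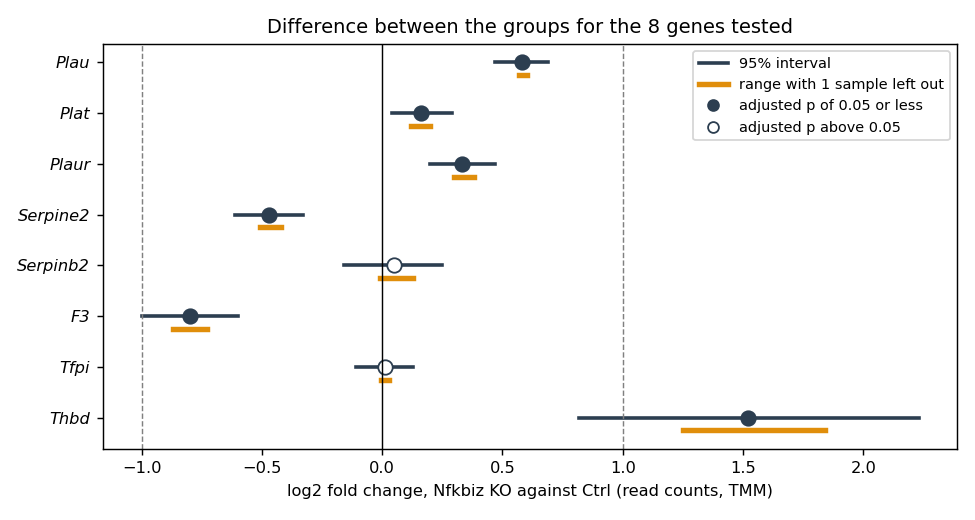
Log2 fold change of the 8 tested genes between Nfkbiz KO and Ctrl (x axis, read counts after TMM normalization); points are the fitted values, filled where the adjusted p is 0.05 or less, dark lines the 95% intervals and orange lines the range when 1 sample was left out. *Plau*, *Plaur*, *Plat* and *Thbd* lie right of 0, *Serpine2* and *F3* left of it, and the dashed lines mark a fold change of 2, which only the point of *Thbd* passes.

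Since TPM is a level per transcript length, the 9 genes can be ranked within a group. In Ctrl the order was *Plau*, *Plaur*, *Plat*, *F3*, *Tfpi*, *Serpine2*, *Serpinb2*, *Tfpi2* and *Thbd*. The samples of *Serpine2* and *Serpinb2* overlapped, as did those of *Tfpi2* and *Thbd*, so these neighbours were not separated by level. In Nfkbiz KO, *Plau*, *Plaur* and *Plat* were again the highest and were followed by *Tfpi*, *F3*, *Serpinb2*, *Serpine2*, *Thbd* and *Tfpi2*, where only *F3* and *Serpinb2* overlapped. *Tfpi* thus stood above *F3* and *Serpinb2* above *Serpine2* in Nfkbiz KO, where the latter gene of each pair had fallen and the former did not pass the test.

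The 9 genes summed to 312, 322 and 300 TPM in Ctrl and to 405, 396 and 417 TPM in Nfkbiz KO. *Plau* made up 35.5% to 36.7% of this sum in Ctrl and 43.8% to 44.6% in Nfkbiz KO. The share of *F3* was 7.89% to 9.55% in Ctrl and 3.95% to 4.70% in Nfkbiz KO. The difference in the sum was mostly that of urokinase and its receptor, with tissue factor taking a smaller share in every Nfkbiz KO sample.

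**Figure D3:**
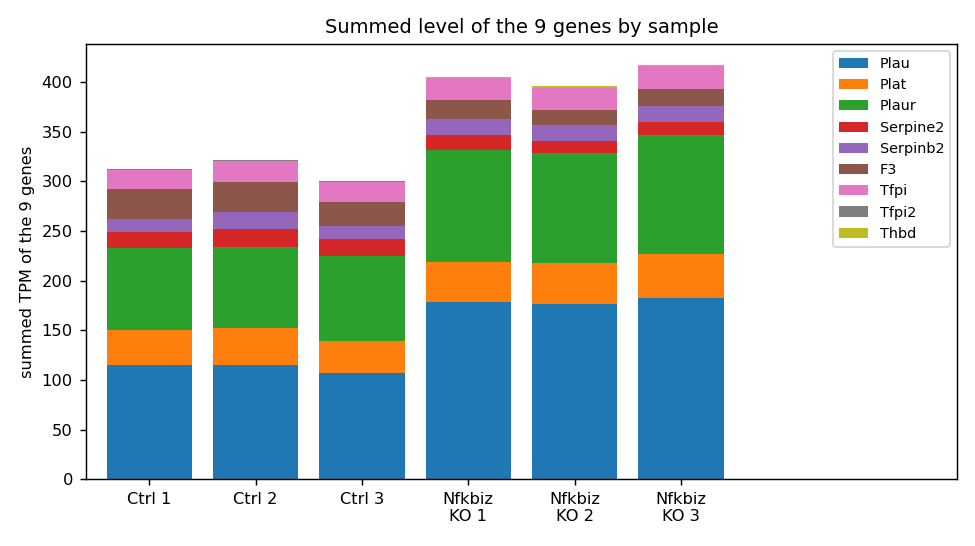
Summed TPM of the 9 genes in each of the 6 samples (stacked bars from 0, a color per gene). The bars reach 300 to 322 TPM in Ctrl and 396 to 417 TPM in Nfkbiz KO, with *Plau* (blue) and *Plaur* (green) as the widest segments.

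Ratios within a sample set *Plau* beside *Serpine2*, *Plat* and *Plaur*, and *F3* beside *Tfpi* and *Tfpi2*. They are given as a description without a test. The *Plau* to *Serpine2* ratio was 7.06, 6.22 and 6.20 in Ctrl and 12.7, 14.0 and 13.4 in Nfkbiz KO, with means of 6.49 ± 0.488 and 13.3 ± 0.652 (SD, n = 3). The *Plau* to *Plat* ratio had means of 3.2 ± 0.0994 and 4.29 ± 0.172, and the *Plau* to *Plaur* ratio 1.35 ± 0.0857 and 1.58 ± 0.0367. Urokinase RNA was thus higher relative to the inhibitor *Serpine2*, to the other activator and, to a smaller extent, to its receptor. A ratio to the inhibitor *Serpinb2*, which did not pass the test, was not computed.
The *F3* to *Tfpi* ratio went the opposite way, with 1.5, 1.35 and 1.17 in Ctrl and 0.884, 0.717 and 0.741 in Nfkbiz KO. *F3* RNA exceeded *Tfpi* RNA in every Ctrl sample and was below it in every Nfkbiz KO sample. The *F3* to *Tfpi2* ratio, resting on few reads, had overlapping spreads of 60.5 ± 32.1 and 116 ± 65.1.

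**Figure D4:**
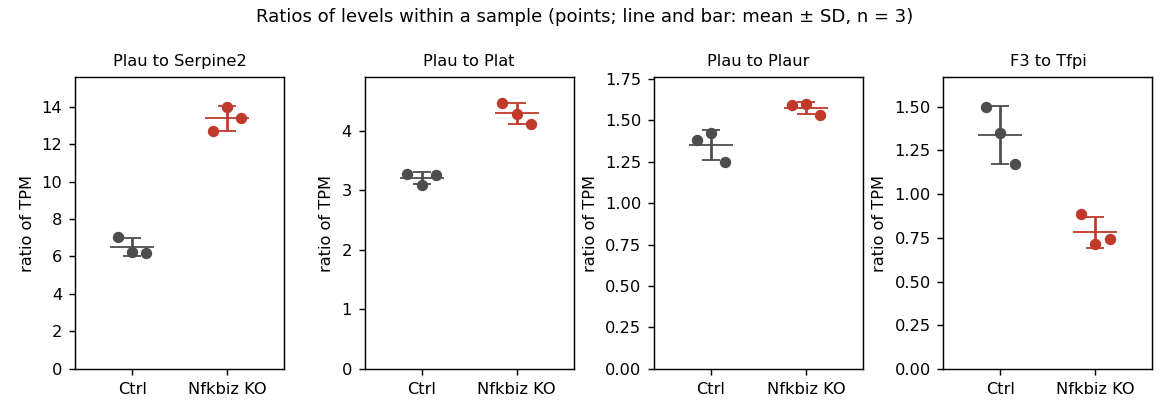
Within-sample ratios of TPM (y axes, from 0) in the 3 Ctrl (grey) and 3 Nfkbiz KO (red) samples; points are samples, lines and bars the mean ± SD. *Plau* to *Serpine2* has a mean of 6.49 in Ctrl and 13.3 in Nfkbiz KO, and *F3* to *Tfpi* a mean of 1.34 and 0.781.

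A wider list of 47 genes of plasminogen activation and coagulation was read by role. Of the 47, 22 were tested and 10 passed the adjusted p of 0.05 (45.5% of those tested, against 36.6% of all genes), 3 higher and 7 lower in Nfkbiz KO. The median log2 fold change of the 22 genes was -0.02, as for all genes, and 0 of them passed the study's thresholds, also with the unadjusted p. Plasminogen itself (*Plg*) had 0 reads in all samples, as did 12 genes of the list in all. The substrate of the activators was therefore not detected as RNA in these cells.

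Of 9 inhibitors of plasmin or its activators, 5 were tested and 1 passed. *Serpinb8*, an intracellular serpin, rose from 1.99 ± 0.181 to 4.64 ± 0.242 TPM (SD, n = 3), a log2 fold change of 1.07 (SE 0.14, edgeR adjusted p = 6.2e-05). It passed in 14 of 14 alternative settings. Whether its product acts on plasmin or the activators was not tested. *Serpini1*, *Serping1* and *Serpinb6a* had log2 fold changes of -0.05, -0.09 and 0.00 (adjusted p = 0.86, 0.91 and 0.96).

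On the plasminogen side, 7 of 11 genes were tested, of which 2 were higher (against 18.2% of all genes) and 2 lower (against 18.4%). The genes named in this paragraph were chosen after their values were seen. The endocytic receptors *Vldlr* and *Igf2r*, of which the former takes up protease-serpin complexes and the latter binds the urokinase receptor, rose with log2 fold changes of 0.41 (adjusted p = 0.00014) and 0.34 (adjusted p = 0.004). The related receptor *Lrp1* had a log2 fold change of 0.07 and did not pass. The plasminogen receptors *Eno1* and *Anxa2* fell with -0.55 (adjusted p = 3.5e-05) and -0.23 (adjusted p = 0.014). The call of *Anxa2* was lost in 4 of 14 settings, both limma fits and those without Nfkbiz KO 1 (0.071) or Nfkbiz KO 2 (0.069), and only 57.7% of the *Eno1* reads were uniquely mapped, so reads of near-identical copies may be included. *S100a10*, the partner of *Anxa2*, had -0.03 and did not pass.

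On the clotting side, only 3 of 16 clotting factor genes were tested, and 9 had 0 reads in all samples. None of the 3 passed by edgeR (against 36.6% of all genes) or by DESeq2. An unadjusted edgeR p under 0.05 was reached by 0 of them, whereas limma called 1 gene, *F8*, at a mean below 0.3 TPM. The 4 receptors of thrombin and factor VIIa included 2 that were tested, of which 1 passed (against 36.6% of all genes). *F2r* (PAR1), the thrombin receptor, had 139 ± 13.2 and 157 ± 2.42 TPM with a log2 fold change of 0.08 (adjusted p = 0.29). *F2rl1* (PAR2), which is cleaved by the complex of tissue factor and factor VIIa, was counted with 19, 11 and 17 reads in Ctrl and 4, 7 and 9 reads in Nfkbiz KO. It fell with a log2 fold change of -1.26 (SE 0.44, adjusted p = 0.041), a call that was lost in 10 of 13 alternative settings, among them DESeq2 (adjusted p = 0.098), the replicate block (0.065) and leaving out any sample but Ctrl 2 (0.15 without Ctrl 1, 0.08 without Ctrl 3, and 0.14, 0.10 and 0.082 without Nfkbiz KO 1, 2 and 3). Both *F3* and *F2rl1* thus had lower counts in each Nfkbiz KO sample, the latter at a level below 0.5 TPM.

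Of 7 anticoagulant genes, 5 were tested and 4 were lower (against 18.4% of all genes), although the calls of *Serpinc1* and *Procr* were lost in some of the settings. *Serpinc1* (antithrombin) had a log2 fold change of -1.68 (adjusted p = 0.0078) from 142 reads in Ctrl and 44 in Nfkbiz KO, but only 32.3% of its reads were uniquely mapped and the call was lost in both limma settings. *Pros1* (protein S), a cofactor of activated protein C and of *Tfpi*, fell from 19.1 ± 1.19 to 14.1 ± 0.665 TPM (log2 fold change -0.57, adjusted p = 6.3e-05). *Anxa5*, which covers the phospholipid surface that clotting needs, and *Procr*, the endothelial protein C receptor that works with thrombomodulin, fell with -0.28 (adjusted p = 0.0021) and -0.23 (adjusted p = 0.021). *Pros1*, *Anxa5* and *Procr* were named after their values were seen. The call of *Procr* was lost in 5 of 14 settings, both limma fits and those without Ctrl 1 (adjusted p = 0.065), Nfkbiz KO 1 (0.11) or Nfkbiz KO 2 (0.064). *Serpind1* had 0.91 and did not pass (adjusted p = 0.22).

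**Figure D5:**
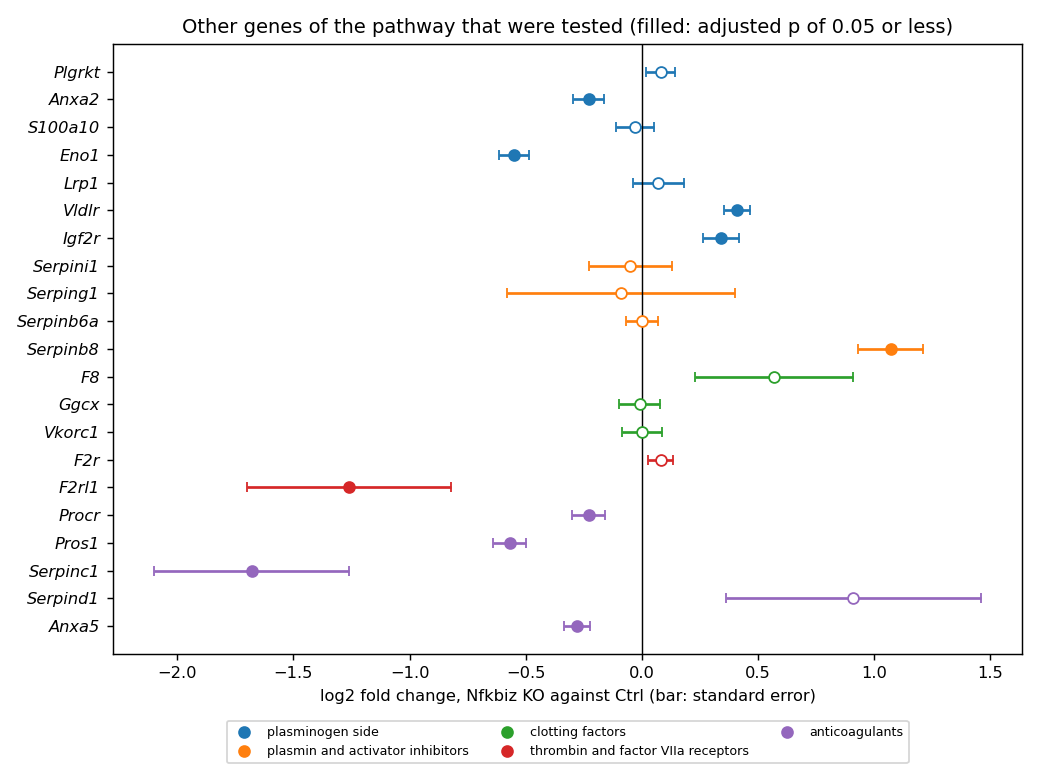
Log2 fold change between Nfkbiz KO and Ctrl (x axis) of the tested genes of the wider list, leaving out 1 that is not reported here, colored by role; bars are standard errors and filled points passed the adjusted p of 0.05. *Serpinb8* stands at 1.07, *F2rl1* at -1.26, and 4 of the 5 anticoagulant genes lie left of 0 with filled points.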

How the data were processed

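RNA of 3 Ctrl and 3 Nfkbiz KO cultures of D4M-3A cells was sequenced as paired reads. Mapping was done by the authors in CLC Genomics Workbench at default settings, with up to 10 hits per read, no use of strand, pairs counted once and broken pairs ignored. The build was GRCm39 in the study's methods and GRCm38 in the submitters' processing notes, and the tables carry no coordinates. The deposited tables give, per gene, raw counts (total and uniquely mapped gene reads) and, with a decimal comma that was converted, TPM and RPKM values that the authors derived from exon reads.

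Total gene reads were tested with edgeR 4.0.16 in R 4.3.3 (quasi-likelihood test, TMM normalization, filterByExpr at its defaults of 10 reads and 15 in total, Benjamini-Hochberg adjustment over 14419 genes), with groups taken from the sample labels and no covariate. The SE is the log2 fold change divided by the root of the F statistic. A count of 0 allowed up to 0.0668 to 0.0931 CPM (3 reads), for counting error only. Levels are the deposited TPM. No samples agreed within sampling noise. Alternatives used DESeq2 1.42.0, limma 3.58.1 on log2(TPM + 1) and log2(TPM + 0.1), RLE factors, other filters, uniquely mapped reads, a replicate block and leaving out each sample. The test was checked on simulated data. Gene positions and overlaps came from GENCODE M39 (GRCm39), and promoters from the RefSeq table.

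The 9 genes, the wider list and the markers were chosen with earlier results of these data known. Beyond the 9 genes and *Nfkbiz*, the rule named genes of the wider list past the adjusted p with a fold change above 1.5, and its tested receptors and inhibitors. It also asked for genes with like patterns where a member passed the study's thresholds, which applied to 0 members. Of the genes that the rule named, 1 is not reported here.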

Additional observations from a re-analysis of the deposited data

How the results depend on the processing

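*Plau*, *Plaur*, *Serpine2*, *F3* and *Thbd* kept their direction and stayed past the adjusted p of 0.05 in 14 of 14 alternatives each. *Plat* kept its direction but missed the threshold with the replicate block (log2 fold change 0.16, adjusted p = 0.069) and in 5 of the 6 fits without 1 sample, which ranged from 0.12 to 0.20, and the cause was not tested. For genes that did not pass, the sign turned without Ctrl 1 for *Serpinb2* (-0.01, range over single samples left out -0.01 to 0.13) and without Ctrl 1 or Nfkbiz KO 3 for *Tfpi* (-0.0066 and -0.0051, range -0.0066 to 0.03). The number of the 9 genes past the adjusted p was 6 in 7 alternatives and 5 with the block. With single samples left out it was 5 to 7. This includes *Tfpi2* in 2 of those fits, where that gene reached the filter only through Ctrl 1 and Ctrl 3. The number past the study's thresholds was 0, and became 1 (*Thbd*) without the difference cut-off and 2 (*Thbd* and *F3*) with the looser limits of 1.5-fold and 0.1 for the adjusted p and no difference cut-off, as fewer conditions were asked. *Plau*, 49.9% higher, fell just short of 1.5-fold. Over all genes these numbers were 258, 854 and 1810. The adjusted p alone called 3798 to 5638 genes in all and 7 to 10 of the wider list over the alternatives.

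The replicate numbers did not pair the samples: same-numbered samples had correlations of their deviations of 0.037, -0.023 and 0.026. With the number as a block, 5087 genes passed the adjusted p, of which 4945 were among the 5274 without it. *Tfpi2* had 34 reads in Ctrl and 10 in Nfkbiz KO, so its values carry wide counting intervals.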

Other observations

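Of the 5 fibroblast markers read as a check of the culture, 4 were tested. Of these 4, 3, all of them matrix genes, were lower in Nfkbiz KO (against 18.4% of all genes). *Col1a1* fell from 367 ± 25.2 to 263 ± 17.4 TPM (SD, n = 3, log2 fold change -0.58, edgeR adjusted p = 1.2e-05), *Col3a1* from 402 ± 16.0 to 328 ± 5.00 TPM (-0.39, adjusted p = 0.00014) and *Dcn*, the proteoglycan decorin, from 15 ± 2.82 to 9.38 ± 0.496 TPM (-0.79, adjusted p = 0.00025). *Pdgfra* had 36.7 ± 3.83 and 39.5 ± 0.992 TPM and did not pass (0.00, adjusted p = 0.98), and *Lum* had 1 read in all 6 samples together. Whether these levels come from the melanoma cells or from other cells was not tested.

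Over the 6 samples, the genes whose log2 CPM ran most like a member's were looked up after the values were seen, and are given without a test since samples of 2 separate groups set such correlations. For *Plau* they included *Daxx* (r = 0.9993) and *Wdr43* (r = 0.999), and for *F3* they were *Rps6ka5* (r = 0.9988), 2610307P16Rik (r = 0.9966) and *Ppm1e* (r = 0.9963). For *Serpine2* the list held *Mmp3* (r = 0.9973), the matrix protease stromelysin-1, with mean levels of 503 and 280 TPM in Ctrl and Nfkbiz KO, respectively.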
